A study of Mus musculus with 14 samples.

Results

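Matricellular and elastic fiber proteins were followed in liver sinusoidal endothelial cells (LSECs), the fenestrated endothelium that lines the liver's capillaries, after an acute liver injury in mice. The 10 genes were taken by name (Fn1, Tnc, Postn, Sparc, Thbs1, Thbs2, Fbn1, Eln, Fbln2 and Fbln5) out of 54524 genes in the deposited table, and all 10 were among the 26626 genes with enough reads to be tested. Bulk RNA sequencing was available for LSECs from 14 male Balb/c mice, aged 10 to 12 weeks by the labels, while the methods give a somewhat older range. A total of 4 mice were healthy and untreated. The others had received a single intraperitoneal injection of carbon tetrachloride (CCl4) in mineral oil at 0.5 µL per g of body weight, and their livers were collected 1 day (2 mice), 3 days (4 mice) or 7 days (4 mice) later. CCl4 is turned into a reactive radical by hepatocytes and kills them around the central vein. The healthy mice received no injection of oil, so CCl4 and the injection cannot be told apart. Viable cells were sorted as CD32+ and negative for UV and for the macrophage marker F4/80, the methods adding a gate against the leukocyte marker CD45, and RNA was isolated without culture. The UV gate is meant to leave out hepatic stellate cells, which autofluoresce.

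Matricellular proteins are secreted into the extracellular matrix but act mainly as signals, binding integrins, growth factors and other matrix proteins rather than bearing load. Most are sparse in resting adult tissue and are laid down in wounds. Elastic fibers are a core of crosslinked elastin on a scaffold of fibrillin microfibrils, joined by fibulins, and fibronectin is a matrix glycoprotein on which many other fibers assemble. In the injured liver much of this matrix is made by activated hepatic stellate cells and portal fibroblasts, with endothelial cells as a further source.

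Upstream sequence is shown for the members called higher on day 3 for which a promoter was held, since they moved in the same comparison. RefSeq promoters on GRCm38.p6 were held for 7 of the 10 genes, and the 250 bases before the start are given 5′ to 3′ in the direction of transcription, with every match to a searched motif in capitals.
Tnc, chr4:64047016-64047265, minus strand: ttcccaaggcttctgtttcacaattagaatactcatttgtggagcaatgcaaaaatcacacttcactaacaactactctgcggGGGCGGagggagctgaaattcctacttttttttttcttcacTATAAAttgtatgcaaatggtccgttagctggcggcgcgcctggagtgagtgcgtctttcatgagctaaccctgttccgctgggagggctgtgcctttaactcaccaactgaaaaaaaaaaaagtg
Postn, chr3:54360857-54361106, plus strand: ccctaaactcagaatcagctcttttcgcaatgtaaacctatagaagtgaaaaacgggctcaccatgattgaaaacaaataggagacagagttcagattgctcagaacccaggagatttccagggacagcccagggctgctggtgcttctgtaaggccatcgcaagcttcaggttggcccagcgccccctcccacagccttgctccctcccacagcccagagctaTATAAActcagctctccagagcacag
Sparc, chr11:55420081-55420330, minus strand: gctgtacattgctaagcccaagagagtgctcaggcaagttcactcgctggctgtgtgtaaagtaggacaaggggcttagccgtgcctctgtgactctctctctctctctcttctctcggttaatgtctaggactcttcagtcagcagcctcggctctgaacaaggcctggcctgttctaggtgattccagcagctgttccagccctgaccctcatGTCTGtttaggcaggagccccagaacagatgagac
Fbn1, chr2:125506439-125506688, minus strand: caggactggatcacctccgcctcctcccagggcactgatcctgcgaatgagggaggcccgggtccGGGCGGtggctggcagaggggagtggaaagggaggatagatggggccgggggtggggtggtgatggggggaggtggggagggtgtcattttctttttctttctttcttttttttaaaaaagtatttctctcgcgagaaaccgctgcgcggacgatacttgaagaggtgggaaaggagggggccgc
The start used lay 0 bases from the nearest transcript start in GENCODE for Tnc and Sparc, 2 bases from it for Postn and 53 for Fbn1. From the annotated start of the gene it lay 3103 bases for Sparc and 1555 for Fbn1. The windows of these genes thus lie inside the gene spans given below. For Tnc and Postn 2 starts each were held, and 1 is shown. Motif positions count from the start used. Searched on both strands were the TATA box (TATAAA), the Sp1 box (GGGCGG), the CCAAT box (CCAAT), the SMAD element (CAGAC), the AP-1 element (TGANTCA), the TEAD element (CATTCC) and the CArG box. The TATA box of Postn stood at -26 to -21 from the start and that of Tnc at -126 to -121, and 12.4% of the 32851 mouse promoters of this length held one. Tnc and Fbn1 each held an Sp1 box, from -167 and from -185, as did 32.7% of promoters. Sparc held a SMAD element on the opposite strand at -35 to -31, a motif found in 42.2% of promoters. No AP-1, TEAD or CArG match lay in these windows or in those of Thbs2, Fbln2 and Fbln5. These elements occurred in 6.75%, 12.6% and 1.47% of promoters, and CCAAT boxes in 33.8%. A match is a description of the letters only.

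Total counts ran from 46401496 to 103912264 per mouse. Levels are given as CPM, a gene's count as a share of all counts of its library, put on a common scale for all mice by TMM (a trimmed mean of gene ratios), and a gene under 3 counts in a mouse was taken as not detected, a floor that covers counting error only. Markers of LSECs were present throughout, with all 11 detected in every mouse, and their summed level was 17866 to 21246 CPM in healthy mice and 10524 to 15806 CPM after CCl4. A pair of libraries stood apart. Healthy replicate 4 held 9061 CPM of hepatocyte markers against 215 to 400.2 CPM in the other healthy mice. Day 3 replicate 4 had 22986 genes with a count, against 34678, 34768 and 28203 in day 3 replicates 1, 2 and 3. Called values that moved by over 1.5 times without them are given with and without them. In bulk RNA a higher level per cell and more cells of one type cannot be told apart.

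Per length of transcript, Sparc was by far the most abundant of the 10 genes in every group, at 706 CPM per kb in healthy LSECs and 1185 CPM per kb on day 3. The next gene in healthy LSECs was Thbs2 at 1.34 CPM per kb, followed by Fn1 at 0.978 and Thbs1 at 0.764 CPM per kb. Tnc was lowest at 0.0128 CPM per kb. From Thbs2 down to Postn the mice's ranges of neighbouring genes overlapped, so only Sparc at the top and Tnc at the bottom were set apart in healthy mice. On day 1 the order changed to Sparc, then Thbs1 at 18.9 CPM per kb, then Fn1 at 3.44 CPM per kb, each apart from the next. On day 3 only Sparc was apart from its neighbour, with Thbs1 at 7.80 and Fn1 at 7.66 CPM per kb. On day 7 Fn1 held the second place at 24.1 CPM per kb with all 4 mice above those of Thbs1, at 5.46 CPM per kb. Tnc remained lowest on every day, at 1.06 CPM per kb on day 7.

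**Figure D1:**
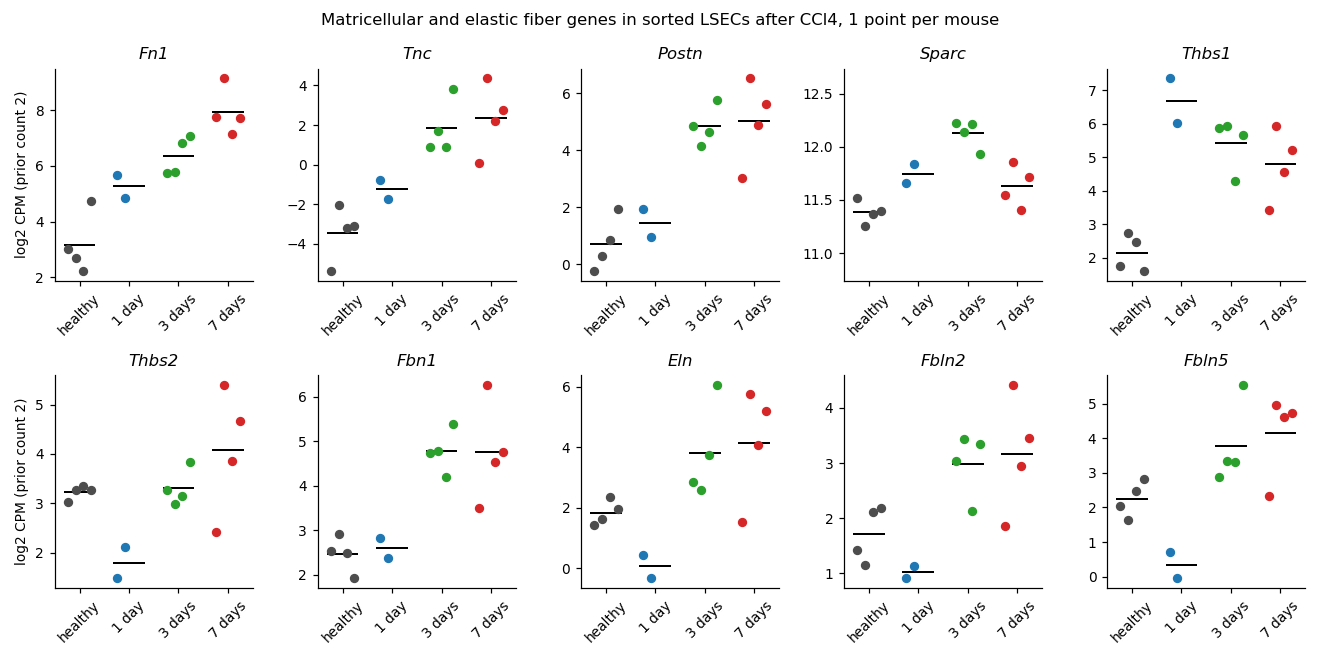
Level of each of the 10 genes as log2 CPM with a prior count of 2 (vertical axis, scaled separately in each panel), with 1 point per mouse and a bar at the group mean of the plotted values, for healthy mice (n = 4) and mice 1 day (n = 2), 3 days (n = 4) and 7 days (n = 4) after CCl4. The group mean of Fn1 lay higher on each later day, Thbs1 was highest on day 1, and Thbs2, Eln, Fbln2 and Fbln5 had both day 1 mice below all healthy mice.

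Fn1, which encodes fibronectin (chr1:71585520-71653200, minus strand, GRCm38), had a higher mean at each later time. In healthy mice it measured 8.02, 6.47, 4.64 and 26.6 CPM, and on day 1 it measured 51.6 and 28.7 CPM. On day 3 the 4 mice held 53.4, 55.2, 114 and 136 CPM, and on day 7 they held 213, 566, 139.9 and 209 CPM. Every mouse after CCl4 lay above every healthy mouse, and every day 7 mouse above every day 3 mouse. The log2 fold change against healthy was 1.81 ± 0.66 (SE) on day 1, which was not called (edgeR quasi-likelihood test, Benjamini-Hochberg adjusted p = 0.157), 2.97 ± 0.61 on day 3 (adjusted p = 0.0119) and 4.62 ± 0.66 on day 7 (adjusted p = 0.00481). The steps from day 1 to day 3 (1.16 ± 0.73, edgeR adjusted p = 0.474) and from day 3 to day 7 (1.66 ± 0.58, edgeR adjusted p = 0.171) were not called. The highest healthy value belonged to the mouse with 9061 CPM of hepatocyte markers, and hepatocytes make the fibronectin of plasma. Without that mouse the log2 fold change was 2.64 on day 1 (edgeR adjusted p = 0.0316), 3.74 on day 3 and 5.50 on day 7. Against 215 to 400.2 CPM in the 3 healthy mice then kept, the hepatocyte marker sum was 44.8 to 166 CPM on day 1, 931 to 3311 CPM on day 3 and 859 to 6954 CPM on day 7. In the fit of all 14 mice, which kept healthy replicate 4, 0 of 9 of these markers were called on any day. Their calls were not taken from the fit without that mouse. Day 7 replicate 2 had both the highest Fn1 level and the highest hepatocyte sum after CCl4, and the part of hepatocyte RNA in Fn1 was not tested.

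Tnc, encoding tenascin-C, a multi-armed glycoprotein of wounds, rose from near nothing (chr4:63959785-64047015, minus strand). Healthy replicate 1 had 0 counts of Tnc, under the floor of 0.0299 CPM, and the other healthy mice held 0.223, 0.0832 and 0.0916 CPM. Levels were 0.562 and 0.275 CPM on day 1, 1.83, 3.27, 1.85 and 14.2 CPM on day 3, and 1.02, 20.6, 4.63 and 6.80 CPM on day 7. No injured mouse overlapped the healthy range, but the day 3 and day 7 mice differed widely among themselves. The log2 fold change was 5.73 ± 1.17 on day 3 (edgeR adjusted p = 0.0117) and 6.37 ± 1.20 on day 7 (edgeR adjusted p = 0.0148), and 2.07 ± 1.19 on day 1, which was not called (edgeR adjusted p = 0.409). Size and call leaned on single mice: on day 3 the value was 4.43 without day 3 replicate 4 and 6.48 without healthy replicate 2. On day 7 it was 5.38 without day 7 replicate 2 and 7.13 without healthy replicate 2, and the call was lost without healthy replicate 3 (edgeR adjusted p = 0.0584). Tnc shares exon sequence with 8030451A03Rik on the opposite strand, whose counts reached 37.5% of those of Tnc in 1 mouse but never more than 29, and since the use of strand was not stated these reads cannot be assigned.

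Postn encodes periostin, which links collagen and integrins in healing tissue (chr3:54361109-54391037, plus strand). It measured 0.818, 1.21, 1.78 and 3.77 CPM in healthy mice and 3.79 and 1.92 CPM on day 1, where the groups overlapped. On day 3 it reached 29.0, 17.5, 24.7 and 53.9 CPM and on day 7 it reached 8.15, 92.2, 29.7 and 49.8 CPM, all above every healthy mouse. Postn thus stayed near the healthy range for a day and then rose, by a log2 fold change of 4.05 ± 0.70 on day 3 (edgeR adjusted p = 0.00576) and 4.57 ± 0.72 on day 7 (edgeR adjusted p = 0.00772), against 0.59 ± 0.76 on day 1 (edgeR adjusted p = 0.778). Both calls held whichever mouse was left out. The day 7 value was 3.95 without day 7 replicate 2 and 5.16 without healthy replicate 4.

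Sparc, encoding osteonectin, a collagen-binding protein that endothelial cells express strongly (chr11:55394500-55423183, minus strand), changed little in relative terms from a high level. It measured 2935, 2439.5, 2642 and 2688 CPM in healthy mice and 3229 and 3653 CPM on day 1. Day 3 mice held 4780.1, 4502, 4763 and 3907 CPM, and day 7 mice held 3001, 3703, 2714 and 3354 CPM. All day 3 mice lay above all healthy, day 1 and day 7 mice, and the day 7 range overlapped the healthy range. The log2 fold change was 0.36 ± 0.20 on day 1 (edgeR adjusted p = 0.376), 0.75 ± 0.16 on day 3 (edgeR adjusted p = 0.0161) and 0.25 ± 0.16 on day 7 (edgeR adjusted p = 0.387), so that Sparc was called only on day 3. This call was lost in 7 of the 14 fits that left out 1 mouse (day 1 replicates 1 and 2, day 3 replicates 1 and 3, day 7 replicate 4, healthy replicates 2 and 4), with log2 fold changes of 0.56 to 0.70 and edgeR adjusted p from 0.0530 to 0.0778. It was also lost with no filter on low counts (0.57, edgeR adjusted p = 0.106) and when only the 2 groups compared were fitted (0.66, edgeR adjusted p = 0.056).

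The thrombospondins differed in course. Thbs1 encodes thrombospondin-1, which blocks angiogenesis, can free latent TGF-beta and is stored in platelets (chr2:118111876-118127133, plus strand). It measured 3.37, 6.68, 5.50 and 3.00 CPM in healthy mice and 164 and 65.2 CPM on day 1. It then measured 58.0, 60.9, 19.6 and 51.1 CPM on day 3 and 10.8, 61.5, 23.5 and 36.9 CPM on day 7. All 10 injured mice lay above all healthy mice, and both day 1 mice lay above all day 3 and day 7 mice. Thbs1 was called on every day, with a log2 fold change of 4.63 ± 0.62 on day 1 (edgeR adjusted p = 0.000931), 3.35 ± 0.55 on day 3 (edgeR adjusted p = 0.00423) and 2.84 ± 0.53 on day 7 (edgeR adjusted p = 0.0148). Without day 1 replicate 1 the day 1 value was 3.78 (edgeR adjusted p = 0.0201), and without healthy replicate 1 the day 7 call was lost (2.71, edgeR adjusted p = 0.0620). Platelet markers summed to 23.9 to 41.0 CPM in healthy mice, 284 and 102 CPM on day 1, 47.8 to 160 CPM on day 3 and 20.8 to 34.7 CPM on day 7, and 3, 1 and 1 of the 6 were called higher on days 1, 3 and 7. Most of the day 1 sum was Pf4, at 84.0 to 255 CPM. Ppbp held 4.61 to 18.3 CPM and Itga2b 8.54 to 12.1 CPM on that day, and Gp9, Gp1bb and Treml1 reached at most 1.06, 1.18 and 0.191 CPM. The part of platelets in the level of Thbs1 was not tested.

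Thbs2, encoding thrombospondin-2, which binds matrix proteases and shapes collagen fibrils (chr17:14665500-14694235, minus strand), was not called on any day. It measured 8.12, 9.55, 10.2 and 9.64 CPM in healthy mice, 2.77 and 4.29 CPM on day 1 and 9.57, 7.89, 8.81 and 14.3 CPM on day 3. On day 7 it measured 5.34, 42.0, 14.4 and 25.4 CPM. The day 1 mice lay below all healthy mice and 3 of the 4 day 7 mice above them. Its difference from healthy (log2 fold change) was -1.41 ± 0.59 on day 1 (edgeR adjusted p = 0.224), 0.11 ± 0.45 on day 3 (edgeR adjusted p = 0.915) and 1.21 ± 0.46 on day 7 (edgeR adjusted p = 0.151). Without day 7 replicate 1, the mouse with the lowest value of that day, the day 7 difference was 1.54 and was called (edgeR adjusted p = 0.0264).

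Among the elastic fiber genes, Fbn1 was the one called against healthy LSECs. Fbn1 encodes fibrillin-1, the backbone of microfibrils, which also hold latent TGF-beta (chr2:125300594-125507993, minus strand). It measured 5.73, 7.46, 5.55 and 3.77 CPM in healthy mice and 7.02 and 5.16 CPM on day 1, within the healthy range. On day 3 it held 26.8, 27.5, 18.3 and 41.9 CPM and on day 7 it held 11.3, 76.8, 23.3 and 27.0 CPM, all above the healthy mice. Against healthy LSECs, Fbn1 changed by a log2 fold change of 2.35 ± 0.49 on day 3 (edgeR adjusted p = 0.0125) and 2.62 ± 0.49 on day 7 (edgeR adjusted p = 0.0145), with 0.11 ± 0.57 on day 1 (edgeR adjusted p = 0.965). The day 7 value fell to 1.87 without day 7 replicate 2, and the call was lost without healthy replicate 1 (2.63, edgeR adjusted p = 0.0584) and without healthy replicate 3 (2.61, edgeR adjusted p = 0.0535). Gm9913 overlaps Fbn1 on the opposite strand with at most 108 counts, up to 15.5% of the count of Fbn1 in a mouse.

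Eln, encoding elastin, the rubber-like core of the fiber (chr5:134702593-134747323, minus strand), had the widest spread on day 3. It measured 2.66, 3.04, 5.08 and 3.86 CPM in healthy mice and 1.34 and 0.770 CPM on day 1. On day 3 it held 7.14, 6.0, 13.3 and 66.6 CPM and on day 7 it held 2.89, 54.7, 17.0 and 36.8 CPM. The day 1 mice lay below and the day 3 mice above all healthy mice, while day 7 replicate 1 fell inside the healthy range. The log2 fold change was -1.79 ± 1.09 on day 1 (edgeR adjusted p = 0.442), 2.67 ± 0.85 on day 3 (edgeR adjusted p = 0.0774) and 2.93 ± 0.86 on day 7 (edgeR adjusted p = 0.0793), none of them called. The day 7 difference was called without day 7 replicate 1 (3.30, edgeR adjusted p = 0.0309) and without day 3 replicate 4 (2.92, edgeR adjusted p = 0.0243). Without the latter mouse the day 3 value was 1.19 in place of 2.67.

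Of the fibulins, Fbln5 encodes fibulin-5, which tethers elastin to microfibrils and to integrins (chr12:101746565-101819055, minus strand). It measured 4.09, 3.10, 5.56 and 7.05 CPM in healthy mice, 1.63 and 0.947 CPM on day 1, 7.37, 10.1, 9.96 and 46.5 CPM on day 3, and 4.99, 31.1, 24.5 and 26.4 CPM on day 7. As for Eln, the day 1 mice lay below all healthy mice, the day 3 mice above them, and day 7 replicate 1 among them. Differences from healthy were log2 fold changes of -1.94 ± 0.83 on day 1 (edgeR adjusted p = 0.234), 1.90 ± 0.63 on day 3 (edgeR adjusted p = 0.0884) and 2.13 ± 0.63 on day 7 (edgeR adjusted p = 0.0816). The day 7 difference was called without day 7 replicate 1 (2.45, edgeR adjusted p = 0.0339) and without day 3 replicate 4 (2.12, edgeR adjusted p = 0.0210), and without the latter the day 3 value was 0.79.

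Fbln2 encodes fibulin-2, a binding partner of fibrillin and fibronectin (chr6:91212455-91272540, plus strand). It measured 2.65, 2.20, 4.29 and 4.52 CPM in healthy mice and 1.85 and 2.16 CPM on day 1, just below them. It held 8.16, 10.8, 4.37 and 10.2 CPM on day 3 and 3.62, 21.3, 7.69 and 10.9 CPM on day 7, with 3 of the 4 mice above all healthy mice on each day. As log2 fold changes, the differences from healthy were -0.77 ± 0.58 on day 1 (edgeR adjusted p = 0.567), 1.29 ± 0.47 on day 3 (edgeR adjusted p = 0.116) and 1.67 ± 0.47 on day 7 (edgeR adjusted p = 0.0700). It was called on day 7 without day 7 replicate 1 (1.96, edgeR adjusted p = 0.0188) and without day 3 replicate 4 (1.67, edgeR adjusted p = 0.0494).

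**Figure D2:**
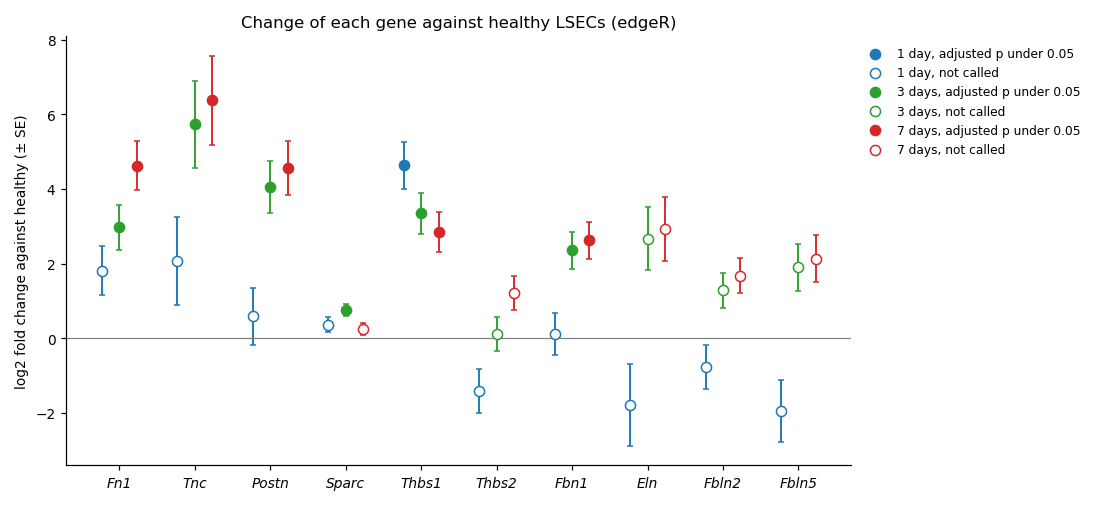
Log2 fold change of each gene against healthy LSECs (vertical axis) 1, 3 and 7 days after CCl4, with bars of 1 standard error from the edgeR fit over all 14 mice. Filled points had an adjusted p under 0.05, which held for Thbs1 on all 3 days, for Fn1, Tnc, Postn and Fbn1 on days 3 and 7, for Sparc on day 3, and for none of Thbs2, Eln, Fbln2 and Fbln5.

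Set side by side, Thbs1 was the 1 of 10 genes called higher on day 1, with none called lower, against 2.42% of all tested genes called higher and 1.64% called lower. For 4 of the 10 genes (Fn1, Tnc, Sparc and Thbs1) the pair of day 1 mice exceeded the healthy range, and for 4 (Thbs2, Eln, Fbln2 and Fbln5) it fell short of it, where 20.0% of all tested genes lay above and 17.9% below, so with 2 mice such a separation was common. The median log2 fold change of the 10 genes was 0.24, and that of all tested genes was -0.03. The count rose to 2 without healthy replicate 4, with Fn1 added, and to 3 in limma, with Fn1 and Sparc added. When only healthy and day 1 mice were fitted it was 4, with Thbs2, Eln and Fbln5 called lower (edgeR adjusted p = 0.0236, 0.0428 and 0.0462).

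On day 3, 6 of 10 genes were called higher and none lower, against 4.62% of tested genes called higher and 2.58% lower. For 8 of the 10 genes, all but Thbs2 and Fbln2, the day 3 and healthy ranges were fully apart, with day 3 above, against 7.53% of tested genes. The median log2 fold change was 2.51 for the 10 genes and 0.18 for all tested genes. The 6 calls spanned both kinds of protein, but of the 4 genes of the elastic fiber only Fbn1 was among them. DESeq2 called 9 of the 10 higher, all but Thbs2.

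On day 7, 5 of 10 genes were called higher and none lower, against 2.19% and 0.992% of tested genes. Those 5 (Fn1, Tnc, Postn, Thbs1 and Fbn1) were also called on day 3, and they were the genes for which all day 7 mice lay above all healthy mice, a separation seen for 8.72% of tested genes. The median log2 fold change was 2.73 for the 10 genes and 0.02 for all tested genes. The count of calls on day 7 rested on single mice. It was 3 without healthy replicate 1 or healthy replicate 3, 8 without day 3 replicate 4, and 9 without day 7 replicate 1. It was also 8 in DESeq2 and 9 in limma.

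The days were also compared with each other in the same model. From day 1 to day 3, Fbln5 was 1 of 10 genes called higher, by a log2 fold change of 3.84 ± 0.92 (edgeR adjusted p = 0.0446), against 1.57% of tested genes. For 9 of the 10 genes all day 3 mice lay above both day 1 mice, as did 11.4% of tested genes, and for Thbs1 all lay below, as did 10.4% (-1.27 ± 0.59, edgeR adjusted p = 0.313). Next in adjusted p came Postn, Eln and Fbn1, which were not called, at 3.45 ± 0.92 (edgeR adjusted p = 0.0672), 4.46 ± 1.26 (edgeR adjusted p = 0.0846) and 2.23 ± 0.63 (edgeR adjusted p = 0.0863). The call of Fbln5 was the least stable: it was lost in 9 of the 14 fits without 1 mouse, namely day 1 replicates 1 and 2, day 3 replicate 3, day 7 replicates 2, 3 and 4 and healthy replicates 1, 2 and 3, with edgeR adjusted p from 0.0530 to 0.391. Without day 3 replicate 4 the value was 2.76 and still called (edgeR adjusted p = 0.0377), and without day 7 replicate 1 or healthy replicate 4 the count of called genes was 2, with Postn added. Without day 7 replicate 2 the 1 gene called was Fbn1 in place of Fbln5.

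From day 3 to day 7 none of the 10 genes was called by edgeR, against 1.77% of tested genes called in either direction, while 3 had an unadjusted p below 0.05. These were Fn1 (log2 fold change 1.66 ± 0.58, edgeR adjusted p = 0.171), Sparc (-0.49 ± 0.16, edgeR adjusted p = 0.150) and Thbs2 (1.10 ± 0.45, edgeR adjusted p = 0.220). DESeq2 and limma each called 2 genes, Fn1 and Sparc, with adjusted p of 0.0410 and 0.0134 in DESeq2 and 0.0122 and 0.0104 in limma. Fn1 and Sparc were also the genes whose day 3 and day 7 mice did not overlap, Fn1 being higher on day 7, as were 3.76% of tested genes, and Sparc lower, as were 4.15%.

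Within a day the same mice tended to be highest or lowest for several genes. Day 7 replicate 2 held the highest day 7 level of all 10 genes, and day 7 replicate 1 the lowest level of 8 of them, Fn1 and Sparc being the exceptions. The ratio of highest to lowest mouse on day 7 was 20.2 for Tnc, 18.9 for Eln and 11.3 for Postn, but 1.36 for Sparc and 4.05 for Fn1. On day 3, replicate 4 was highest for 7 genes and lowest for Sparc. Over the 14 mice the closest pair was Eln and Fbln5 (Pearson r of log2 CPM 0.970, n = 14), followed by Tnc and Postn (0.948), and Thbs1 and Thbs2 were the pair furthest from it (-0.0479). These values describe mice that share groups and libraries.

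Markers of hepatic stellate cells and myofibroblasts, the main makers of scar matrix, moved with the same mice on day 7 and only in part on day 3. All 15 listed markers were detected in every day 3 and day 7 mouse, and 14 in every healthy and day 1 mouse. The exception was Ngfr, under the floor in 3 mice. No marker was under the floor in every mouse of a group. The sum of the 15 was 162 to 296 CPM in healthy mice, 115 to 139 CPM on day 1, 865 to 2669 CPM on day 3 and 473 to 7638 CPM on day 7. This sum was mostly that of matrix genes. On day 7 Col3a1, Col1a2, Dcn, Col1a1 and Lum reached 2094, 1691, 1583, 1214 and 521 CPM, and Lrat came next at 125 CPM. Markers other than matrix genes were also higher. Lrat held 24.7 to 61.9 CPM on day 3 against 1.53 to 9.28 CPM in healthy mice, Pdgfrb 10.2 to 34.6 against 1.69 to 2.53 CPM, and Des 12.2 to 25.7 against 1.84 to 3.49 CPM. The day 3 and healthy ranges of Colec11 and Ngfr overlapped. In edgeR, 0 of 15 were called on day 1, 11 were called higher on day 3 and 12 on day 7. Over all tested genes 2.42%, 4.62% and 2.19% were called higher on these days. The highest and the lowest day 7 sums, 7638 and 473 CPM, belonged to day 7 replicates 2 and 1, the mice with the highest and lowest levels of Tnc, Postn, Thbs1, Thbs2, Fbn1, Eln, Fbln2 and Fbln5, and the highest day 3 sum belonged to replicate 4. The lowest day 3 sum, 865 CPM, was that of replicate 3, which was lowest of its group for 3 of the 10 genes (Thbs1, Fbn1 and Fbln2). That mouse held 114 CPM of Fn1 and 13.3 CPM of Eln, more than day 3 replicates 1 and 2. On day 1 the stellate sum lay below that of every healthy mouse, as did the levels of Thbs2, Eln, Fbln2 and Fbln5, while Fn1, Tnc, Sparc and Thbs1 lay above every healthy mouse. Portal fibroblast markers ran from 12.6 to 19.3 CPM in healthy mice, 6.75 to 11.4 CPM on day 1, 21.9 to 50.3 CPM on day 3 and 12.8 to 112 CPM on day 7. The 8 of them were all found, with 1 called lower on day 1, 2 called higher on day 3 and 1 called higher on day 7. The sort had gated against the UV signal of stellate cells, and per the methods against doublets with them. The part of either cell type in the levels of the 10 genes was not tested.

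Blood cell markers followed another course. The monocyte and neutrophil sum was 508 to 1371 CPM in healthy mice, 4302 to 8346 CPM on day 1, 1354 to 12428 CPM on day 3 and 4142 to 9579.6 CPM on day 7. Of these 8 markers 4 were called higher on day 1, 3 on day 3 and 1 on day 7. Nearly all of the day 7 sum was Lyz2, at 3919 to 9304 CPM, against 1509 to 1701 CPM on day 1. Ly6c2, S100a8, S100a9, Csf3r and Retnlg were lower in all day 7 mice than in both day 1 mice. S100a8, for example, held 28.9 to 45.8 CPM on day 7 and 736 to 2140 CPM on day 1. The day 1 and day 7 ranges of Ccr2 and Itgam overlapped. The higher day 1 sum belonged to replicate 1, the higher of the pair for 7 of the 10 genes, and the highest day 7 sum to replicate 2, highest for all 10. On day 3 replicates 1 and 2 held 12428 and 7686 CPM, and replicates 3 and 4 held 1451 and 1354 CPM. The lowest sum was that of replicate 4, highest for 7 of the 10 genes. The part of these cells in the levels of the 10 genes was not tested.

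**Figure D3:**
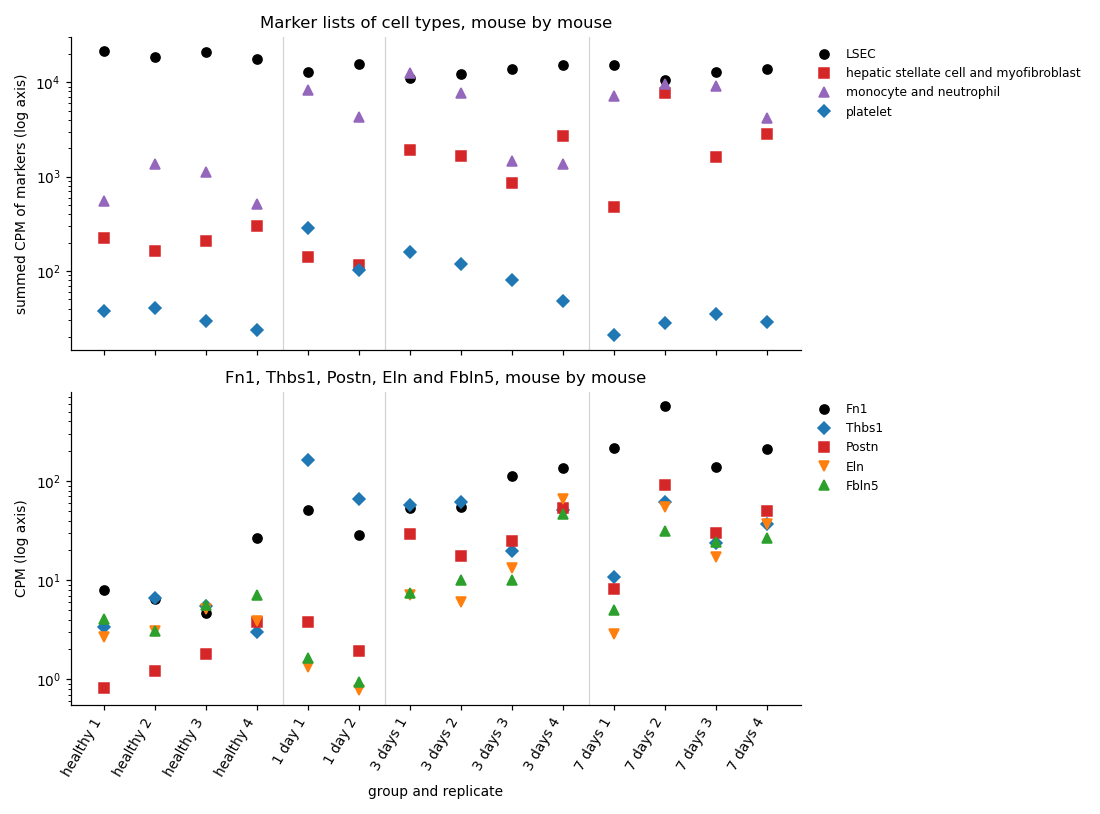
Each of the 14 mice on the horizontal axis by group and replicate, with the summed CPM of marker lists for 4 cell types above and the CPM of Fn1, Thbs1, Postn, Eln and Fbln5 below, both on log axes. Day 7 replicates 1 and 2 are the lowest and highest of their group for the stellate sum and for Postn, Eln and Fbln5, while Thbs1 is highest in the day 1 mice, where the platelet sum reaches 102 and 284 CPM.

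Relatives of these proteins were read from lists of genes outside the 10. In the matricellular families (other tenascins, thrombospondins, SPARC relatives, CCN proteins, osteopontin and TGFBI), 2 of 19 tested genes were called higher on day 1, 5 on day 3 and 3 on day 7, and none lower, where 2.42%, 4.62% and 2.19% of all tested genes were called higher. The list's median log2 fold change was -0.37, 1.06 and 0.97, and that of all tested genes -0.03, 0.18 and 0.02. Ccn2, encoding connective tissue growth factor, rose from 36.7 to 85.8 CPM in healthy mice to 1259.6 to 2276 CPM on day 1 (log2 fold change 5.03 ± 0.46, edgeR adjusted p = 6.21e-05) and was still called on day 3 (2.30 ± 0.38, edgeR adjusted p = 0.00471). Like Thbs1 it was highest on day 1. Spp1, encoding osteopontin, rose on day 3 (2.37 ± 0.61, edgeR adjusted p = 0.0327) and on day 7 (4.19 ± 0.66, edgeR adjusted p = 0.00752), and the difference between these days was not called (1.82 ± 0.60, edgeR adjusted p = 0.145). Sparcl1, the nearest relative of Sparc in this list, was called on day 3 at 2.12 ± 0.56 (edgeR adjusted p = 0.0355) and on day 7 at 3.50 ± 0.59 (edgeR adjusted p = 0.00961). Ccn5 rose on day 3 by 5.46 ± 1.24 (edgeR adjusted p = 0.0187) from 0 to 0.110 CPM in healthy mice, levels too low to fix the size of the fold. It was 6.10 without healthy replicate 1, and the call was lost without healthy replicate 3 (5.28, edgeR adjusted p = 0.0608). Less stable were Tgfbi on day 1 (2.28 ± 0.54, edgeR adjusted p = 0.0306), Smoc2 on day 7 (1.85 ± 0.44, edgeR adjusted p = 0.0405) and Spp1 on day 3, whose calls were lost in 5, 10 and 8 of the 14 fits without 1 mouse. Tgfbi was 1.39 without day 1 replicate 1 and Smoc2 1.24 without day 7 replicate 2. Without day 7 replicate 2 the day 7 value was 3.54 for Spp1 and 2.72 for Sparcl1, both still called.

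Among the other fibrillins, fibulins, microfibril-associated proteins, emilins and latent TGF-beta binding proteins, 21 genes were tested. On day 1, 2 were called higher and 1 lower, against 2.42% and 1.64% of all tested genes, with a median of -1.15 for the list. On day 3, 4 were called higher and on day 7, 6, against 4.62% and 2.19% of all tested genes, with medians of 0.88 and 1.55 and none lower. Ltbp2, a fibrillin binding protein, rose by 5.15 ± 1.01 on day 3 (edgeR adjusted p = 0.00919) and 6.02 ± 1.04 on day 7 (edgeR adjusted p = 0.0107). It started from 0.0587 to 0.250 CPM in healthy mice, low levels that leave the size of the fold uncertain. The day 3 value was 4.22 without day 3 replicate 4 and 4.35 without that mouse and healthy replicate 4, both still called. Mfap2, a microfibril glycoprotein, rose by 3.31 ± 0.62 (edgeR adjusted p = 0.00773) and 4.53 ± 0.65 (edgeR adjusted p = 0.00481), and Adamtsl2 by 3.34 ± 0.71 on day 3 (edgeR adjusted p = 0.0138). The day 1 calls were Emilin2 (2.67 ± 0.57) and Adamtsl4 (2.37 ± 0.59), higher, and the giant fibulin relative Hmcn1 (-1.47 ± 0.31), lower, and these calls were lost in 1, 10 and 2 of the 14 fits without 1 mouse, Emilin2 falling to 2.08 without day 1 replicate 1. Single mice moved several of these values. Without day 7 replicate 2 the day 7 value was 4.89 for Ltbp2 and 3.77 for Mfap2, both still called, and Fbln7 (2.93 ± 0.70 on day 7, edgeR adjusted p = 0.0405) lost its call in 11 of 14 such fits, at 2.22 without day 7 replicate 2.

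Enzymes that crosslink or process this matrix were called in each comparison with healthy LSECs. Lysyl oxidase, encoded by Lox, which crosslinks elastin and collagen, rose by 5.07 ± 0.79 on day 3 (edgeR adjusted p = 0.00317) and 5.28 ± 0.80 on day 7 (edgeR adjusted p = 0.00600). Healthy mice held 0.0936 to 0.376 CPM of Lox, low levels that leave the size of this fold uncertain too. Loxl1, which acts on elastin with fibulin-5, rose by 2.73 ± 0.69 (edgeR adjusted p = 0.0295) and 4.08 ± 0.73 (edgeR adjusted p = 0.0118). Tgm2, the transglutaminase that crosslinks fibronectin, was the 1 enzyme called on day 1, from 266 to 321 CPM in healthy mice to 1171 and 1289 CPM (2.04 ± 0.27, edgeR adjusted p = 0.000931). In all, 1 of 9 tested enzymes was called higher on day 1, 4 on day 3 and 3 on day 7, against 2.42%, 4.62% and 2.19% of all tested genes. None was called lower, and the median was -0.27 on day 1, 1.20 on day 3 and 0.52 on day 7. Loxl2 was called on both days (1.32 ± 0.31 and 1.35 ± 0.31), but these calls were lost in 10 and 11 of the 14 fits without 1 mouse, and that of Loxl1 on day 3 in 7. Without day 7 replicate 2 the day 7 values of Lox and Loxl1 were 4.21 and 3.34, both still called.

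Of 19 receptors of these proteins, 3 were called higher and 1 lower on day 1, 6 higher and 1 lower on day 3 and 4 higher on day 7. Over all tested genes 2.42% were called higher and 1.64% lower on day 1, 4.62% and 2.58% on day 3, and 2.19% and 0.992% on day 7. The list's median log2 fold change was 0.33, 0.91 and 0.81. Itgb3, the beta subunit of an integrin for fibronectin and other matricellular ligands, rose from 4.92 to 13.6 CPM in healthy mice to 339 to 445 CPM on day 1 (5.41 ± 0.37, edgeR adjusted p = 1.66e-05) and was called on day 3 (2.50 ± 0.31) and day 7 (1.83 ± 0.30). Itga8, the alpha subunit of another fibronectin-binding integrin, was called lower on day 1, from 70.7 to 151 CPM in healthy mice to 8.23 to 8.94 CPM (-3.76 ± 0.47, edgeR adjusted p = 0.000629), and again on day 3 (-1.14 ± 0.31, edgeR adjusted p = 0.0445). Cd44 was called on all 3 days, at 2.27 ± 0.46, 2.18 ± 0.41 and 1.81 ± 0.40. Lrp1, an endocytic receptor for thrombospondins, rose by 2.72 ± 0.55 on day 3 (edgeR adjusted p = 0.0110) and 2.68 ± 0.55 on day 7 (edgeR adjusted p = 0.0207, lost in 4 of 14 fits without 1 mouse). The calls of Cacna2d1, a thrombospondin receptor, at 2.88 ± 0.76 on day 3 and 3.23 ± 0.77 on day 7, were lost in 8 and 10 of the 14 fits without 1 mouse, with values of 3.49 and 3.84 without healthy replicate 1 and a day 7 value of 2.33 without day 7 replicate 2. The integrin subunit Itgb3 is also a platelet gene, and the platelet sums given with Thbs1 were highest on the same day, their part in Itgb3 not having been tested.

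**Figure D4:**
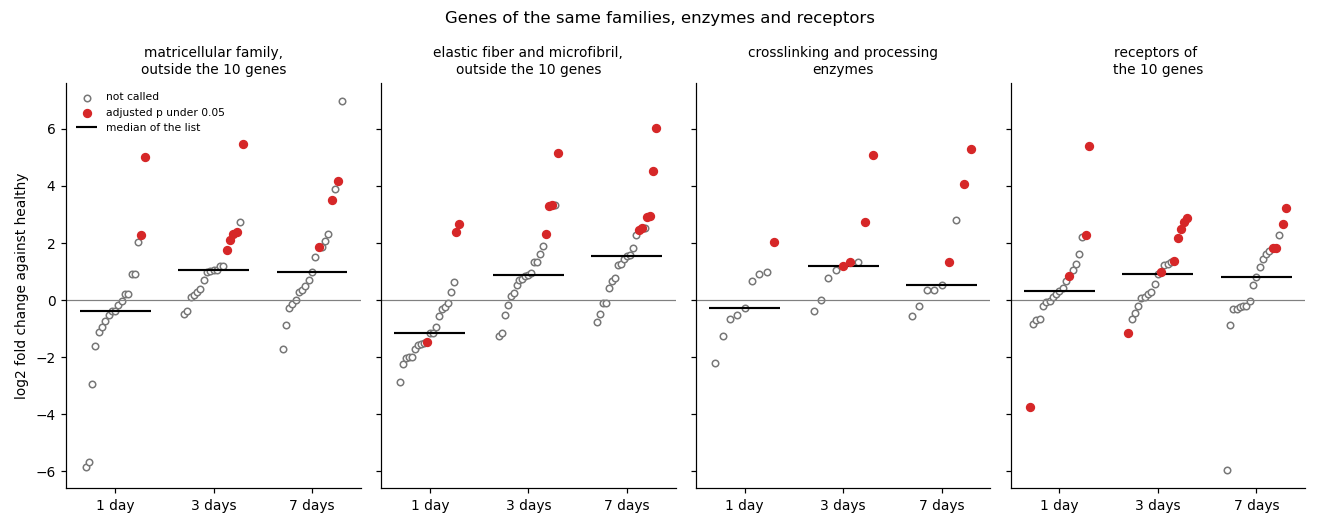
Log2 fold change against healthy LSECs (vertical axis) of the tested genes in 4 lists related to the 10 genes, 1, 3 and 7 days after CCl4, with genes sorted by value within each day and a bar at the list's median. Red points had an adjusted p under 0.05 in edgeR, and the elastic fiber and microfibril list had its median at -1.15 on day 1 and at 1.55 on day 7.

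By likeness of log2 CPM over the 14 mice, the nearest gene outside the 10 was Rdh9 for Fn1 (Pearson r 0.936), Hs6st2 for Tnc (0.971), Pdzrn3 for Postn (0.981), Gins1 for Sparc (0.925) and Pag1 for Thbs1 (0.980). For Thbs2 it was Fmod (0.948), for Fbn1 Pcdh7 (0.973), for Fbln2 Susd2 (0.964), and for both Eln (0.969) and Fbln5 (0.982) it was Lgi2. Arvcf came next for Eln and Fbln5 alike (0.969 and 0.961). Each is the highest correlation among all tested genes outside the 10, over mice that share groups and libraries, and is given as a description.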

How the data were processed

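RNA sequencing of sorted LSECs from 14 mice in 4 groups was analysed, with groups and replicate numbers taken from the sample labels. Per the methods, libraries were made with the SMARTseq v4 kit, reads were trimmed, mapped to GRCm38.p6 with STAR and assembled with StringTie. The deposited values are counts of reads per Ensembl gene ID, whole numbers that the authors had not normalized. How these counts were made from the assembly, the annotation release and the use of strand are not given in the sources used here, and the methods name both paired-end and single-end reads. No per-sample column was left unused (0). Each library was taken as 1 mouse, which the labels do not spell out, and p-values measure only the spread between these samples.

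Positions, exon lengths and overlapping genes came from GENCODE vM21, which held 54495 of the 54524 genes. Genes were filtered with filterByExpr (minimum count 10, minimum total count 15), scaled with TMM and tested with the quasi-likelihood test of edgeR 4.0.16 in R 4.3.3, in 1 model of the 4 group means over all 14 mice, with Benjamini-Hochberg adjustment over all 26626 genes tested and a threshold of 0.05. Each standard error was taken as the size of the log2 fold change over the square root of its F statistic. CPM used TMM-scaled library sizes, and CPM per kb was divided by exon length. The fits were tested on simulated data before use. The alternatives tried included DESeq2 1.42.0, voom with quality weights in limma 3.58.1, other scalings and filters, models of 2 groups, a block for the replicate number, and leaving out mice.

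All 10 genes are named, and from each related list up to the 3 called genes with the largest change per comparison, with others named where a call was unstable. Of the related genes named, Ccn2, Hmcn1, Ltbp2, Lox, Loxl2, Tgm2 and Itga8 overlap a gene on the opposite strand, and Spp1 and Loxl2 one on the same strand, so their counts are uncertain. The 10 genes and all lists were chosen with earlier results of these data known. Spock3, Tll1 and Tll2 did not pass the filter. Staining, blood values and human data were not analysed here.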

Additional observations from a re-analysis of the deposited data

Results flagged for a closer look

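Of 30 gene and group combinations with 4 mice, 4 held a mouse far from the other 3. The rule's rate of about 1 in 20 holds for independent values with a normal spread. It was applied to CPM of genes that share libraries, so no excess over chance can be read from the count. Fn1 in healthy replicate 4 stood at 26.6 CPM with the other healthy mice at 4.64 to 8.02 CPM, in the library with 9061 CPM of hepatocyte markers. The other 3 were in day 3 replicate 4, the library with the fewest genes detected. There Tnc stood at 14.2 CPM against 1.83 to 3.27 CPM, Eln at 66.6 CPM against 6.0 to 13.3 CPM, and Fbln5 at 46.5 CPM against 7.37 to 10.1 CPM. Sparc, by contrast, was lowest of its group in that mouse, at 3907 CPM.

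The differences of Fbln5 from healthy on days 1 and 3 were told apart by the test of day 3 against day 1, at a log2 fold change of 3.84 (edgeR adjusted p = 0.0446), but not stably: the call was lost in 9 of the 14 fits without 1 mouse, with the replicate block (edgeR adjusted p = 0.103) and when only the 2 groups were fitted (edgeR adjusted p = 0.161). The mean was 1.29 CPM in the 2 day 1 mice, 4.95 CPM in healthy mice and 18.5 CPM on day 3. Without day 3 replicate 4 the difference was 2.76 (edgeR adjusted p = 0.0377).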

How the results depend on the processing

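The count of the 10 genes called on day 3 stayed between 5 and 9 under 9 alternatives and between 5 and 6 when 1 mouse was left out. On day 1 (1 gene) it was 3 in limma, 4 when only the 2 groups compared were fitted, 2 without healthy replicate 4 and day 3 replicate 4, and 1 to 2 when 1 mouse was left out. On day 7 (5 genes) it was 8 in DESeq2, 9 in limma, 8 without both mice and 3 to 9 when 1 mouse was left out. From day 1 to day 3 (1 gene) it was 6 in DESeq2, 4 in limma, 2 with at least 10 counts in every sample, 0 with only the 2 groups, 0 with the replicate block and 0 to 2 when 1 mouse was left out. From day 3 to day 7 (0 genes in edgeR, 3 with an unadjusted p below 0.05) it was 2 in DESeq2, 2 in limma, 1 without both mice, and 0 whichever single mouse was left out.

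The sign of differences near 0 turned in the 10 genes, none of them called. Thbs2 on day 3 (0.11) was -0.12 in limma, -0.07 with no filter, -0.16 without both mice, 0.00 without day 7 replicate 1 or 4, and -0.19 to 0.24 over all fits without 1 mouse. Fbn1 on day 1 (0.11) was 0.00 in limma and -0.05 without both mice, and ran from -0.15 to 0.30 without 1 mouse, at -0.06 without healthy replicate 4. Postn on day 1 (0.59) ran from -0.04 without day 1 replicate 1 to 1.14, and to 1.15 without both mice. From day 3 to day 7, the lowest value came without day 7 replicate 2 for Tnc (-0.35 to 1.94), Postn (-0.10 to 1.01), Fbn1 (-0.48 to 0.69), Eln (-0.30 to 1.73) and Fbln2 (-0.18 to 0.81), and Eln was -0.05 without day 3 replicate 2. The cause of these changes was not tested.

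Replicate numbers did not pair the mice: same-numbered mice had correlations of -0.232 to 0.0962 between their deviations from group means. With the replicate block, Fbln5 from day 1 to day 3 was 2.92 and not called (edgeR adjusted p = 0.103). The block changed no other call of the 10 genes. The number of all genes called moved from 1080 to 594 on day 1, from 1915 to 1385 on day 3 and from 846 to 435 on day 7. Tnc could not be tested with at least 10 counts in every sample. Day 1 holds 2 mice, which limits every comparison with it, and fits without 1 of them assume that the other varies like the mice of the other groups.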
